A study of Mus musculus with 4 samples.

Results

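Cycling alveolar macrophages were the cells of mouse lung that carried both the transcripts of alveolar macrophages and a load of cell cycle transcripts. Members were chosen by measured transcripts. A cell was a member when 7 alveolar macrophage genes (Ear1, Fabp1, Atp6v0d2, Krt79, Cidec, Marco, Plet1) made up at least 0.2% of its unique molecular identifiers (UMIs, each counting 1 captured RNA molecule) and when 8 cell cycle genes (Mcm2, Mcm3, Mcm5, Mcm6, Mcm7, Uhrf1, Mki67, Top2a) together had at least 10 UMIs. Cells with 5% or more of UMIs in the surfactant genes Sftpc, Sftpb and Sftpa1, or with more than 2 UMIs of the lymphocyte genes Cd79a, Cd79b, Cd3d and Cd3e, were left out. The rule found 739 cycling cells among 5628 alveolar macrophages and 25982 cells in all; the 4889 alveolar macrophages under the cell cycle threshold are called other alveolar macrophages below. The groups, with 1 library each, were Normoxia-WT (NW, 209 cycling cells), Normoxia-FUNDC1-KO (NK, 296), HySu-WT (HSW, 72) and HySu-FUNDC1-KO (HSK, 162). All mice were 11 weeks old, and each library pooled the lung cells of 5 mice. HySu is a pulmonary hypertension model that joins hypoxia with SU5416, a VEGF receptor inhibitor, given here as 3 weekly doses; both normoxia groups received the vehicle instead. The series title names endothelial FUNDC1, while the labels do not state which cells carry the deletion or which promoter drove it. With 1 library per group no difference below has a replicate or a test, and the bounds in square brackets (95%) cover counting error alone, not the spread between mice.

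Alveolar macrophages live in the air spaces, clear surfactant and inhaled particles, and depend on GM-CSF signalling and the nuclear receptor PPARγ. In the adult lung they maintain their number largely by dividing in place. A dividing cell first loads the MCM helicase, a ring of 6 related subunits, onto replication origins. It then copies its DNA and finally builds a spindle under cyclin B and CDK1. E2F factors control the early genes of this programme. A complex that binds the cell cycle homology region (CHR) controls the mitotic ones, in whose promoters CCAAT boxes are also common.

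The promoters of 6 genes, chosen after their matches were seen, are shown because they hold the letters searched for in genes on which the cells were picked or described. Sequences are RefSeq promoters of GRCm38.p6 on the strand of the gene, 160 bases before the start site, less the bases that overlap an annotated transcript (26 in Cdk1 and 9 in Cdc20). Capitals mark the E2F motif (TTTCGCGC or TTTGGCGC, either strand, overlapping matches joined) and the CHR motif (TTTGAA, either strand).
Mcm5, a helicase subunit (chr8:75109349-75109508, plus strand): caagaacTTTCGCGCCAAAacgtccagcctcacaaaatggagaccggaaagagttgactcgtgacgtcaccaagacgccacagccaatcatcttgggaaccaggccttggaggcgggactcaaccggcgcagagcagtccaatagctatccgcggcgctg
Mcm6, a helicase subunit (chr1:128359706-128359865, minus strand): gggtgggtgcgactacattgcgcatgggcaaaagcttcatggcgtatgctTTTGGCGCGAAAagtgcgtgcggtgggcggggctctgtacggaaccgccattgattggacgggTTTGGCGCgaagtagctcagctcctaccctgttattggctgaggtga
Mki67, the Ki-67 protein that coats mitotic chromosomes (chr7:135716380-135716539, minus strand): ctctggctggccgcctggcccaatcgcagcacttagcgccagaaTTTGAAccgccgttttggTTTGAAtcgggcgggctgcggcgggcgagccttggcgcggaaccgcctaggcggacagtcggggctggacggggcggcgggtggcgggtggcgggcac
Top2a, the topoisomerase that untangles sister DNA (chr11:99024190-99024349, minus strand): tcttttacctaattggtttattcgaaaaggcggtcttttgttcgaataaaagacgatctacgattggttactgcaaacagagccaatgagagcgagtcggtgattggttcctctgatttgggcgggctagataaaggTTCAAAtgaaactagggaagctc
Cdk1, the kinase that starts mitosis (chr10:69352939-69353072, minus strand): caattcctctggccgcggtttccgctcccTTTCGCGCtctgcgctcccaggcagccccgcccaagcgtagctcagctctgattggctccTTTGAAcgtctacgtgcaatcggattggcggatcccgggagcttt
Cdc20, the activator of the anaphase ubiquitin ligase (chr4:118437353-118437503, minus strand): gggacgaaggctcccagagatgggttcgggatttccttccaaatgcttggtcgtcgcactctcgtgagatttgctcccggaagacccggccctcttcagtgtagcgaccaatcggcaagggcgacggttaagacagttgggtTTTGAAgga
The Mcm5 and Mcm6 promoters hold E2F letters and the mitotic ones CHR letters, and Cdk1 holds both. Not every helicase gene does: of the 5 in the rule, Mcm2 has no E2F match and has CHR letters, TTTGAA, from 70 bases before its start. Over windows from 250 bases before to 50 after the start, the CHR motif was in 20 of 27 promoters of the G2 and mitosis list, against 4 of 31 of the licensing and DNA synthesis lists and 18.1% of all 27025 promoters. The E2F motif was in 4 of the 8 rule genes, in 5 of 31 licensing and synthesis promoters and in 0.833% of all promoters. CCAAT, searched on both strands, was in 22 of 27 mitotic promoters, 15 of 31 early ones and 37.9% of all. None of 20 promoters of alveolar macrophage identity genes held the E2F letters, 4 held the CHR letters and 12 held CCAAT. A match is a description of letters and not a measured binding site.

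The cycling cells held 3821931, 4093426, 1281712 and 2719506 UMIs in NW, NK, HSW and HSK, so HSW gives the widest intervals. Median UMIs per cycling cell were 16731, 12929, 16964 and 15090, above the 10588, 8592, 11775 and 10240 of other alveolar macrophages; a threshold in UMIs favours deep cells. The smallest cell of a library had between 3182 and 4726 UMIs. Between 20 and 70 cell barcodes were shared by any pair of libraries. Markers of other lung cells were present: 20.6%, 17.6%, 15.3% and 6.79% of cycling cells, in the same order, carried at least 10 UMIs of some 1 other lineage, and Scrublet, a doublet caller, marked only 4 of the 739 cells. Summed endothelial markers (7 genes, none at 0) stood at 161, 148, 313 and 134 CPM (UMI counts scaled to a common total, so that sums of unequal depth compare) in NW, NK, HSW and HSK, and summed neutrophil markers (6 genes, none at 0) at 1388, 1501, 516 and 1054 CPM; these are set beside the results they move with.

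The threshold falls in a continuous spread and not in a gap. Of all alveolar macrophages, 41.5% had no UMI of the 8 genes, 122 cells had 8 or 9 and 118 had 10 or 11. Among members, 356 cells had 10 to 19 UMIs, 275 had 20 to 49 and 108 had 50 or more. The median member had 21, 19.5, 19 and 21.5 UMIs of these genes in NW, NK, HSW and HSK, and the highest cell 169.

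**Figure D1:**
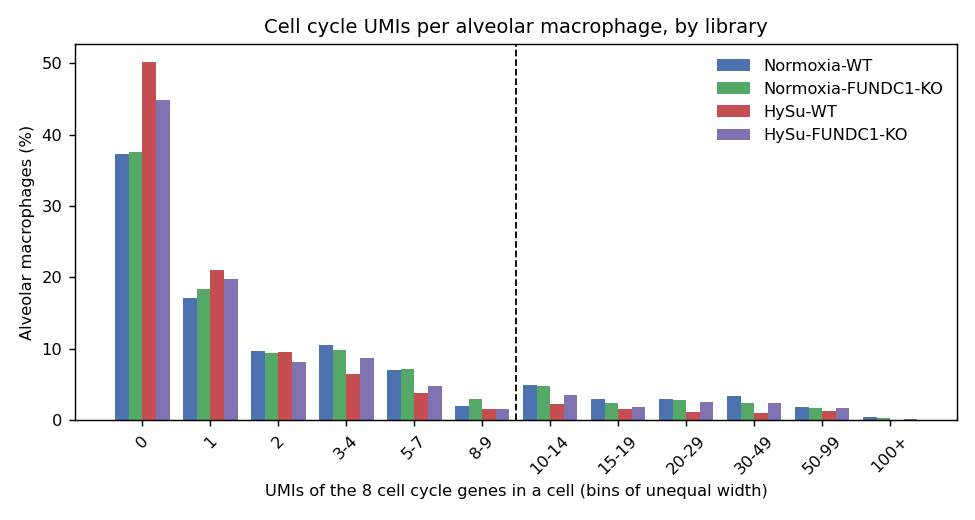
Percent of alveolar macrophages of each library (y axis) by UMIs of the 8 cell cycle genes in a cell (x axis, bins of unequal width); the dashed line is the threshold of 10 UMIs. Bins continue across the line without a gap, and HSW has the tallest bar at 0 UMIs, 50.2% of its alveolar macrophages.

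The genes of the rule are given as a description, since they chose the cells. Marco, a scavenger receptor, was at 924, 916, 733 and 633 CPM in NW, NK, HSW and HSK, and Krt79, a keratin, at 1331, 1153, 1072 and 1028 CPM. Mcm5 was at 163, 183, 126 and 174 CPM, and Uhrf1, which carries DNA methylation through replication, at 85.8, 89.4, 64.0 and 82.0 CPM. Mki67 was at 285, 440, 427 and 388 CPM and Top2a at 268, 436, 298 and 302 CPM. The 5 helicase genes and Uhrf1 were lowest in HSW, while Mki67 was lowest in NW. Every cycling cell held UMIs of at least 3 of the 7 alveolar macrophage genes. No UMI of Mki67 or Top2a was found in 81 of 209 NW members, 104 of 296 NK, 30 of 72 HSW and 50 of 162 HSK members. Such cells met the rule on the helicase genes and Uhrf1 alone.

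Fundc1, the targeted gene, which encodes a receptor that marks mitochondria for autophagy, was nearly absent in the cycling cells of both knockout libraries. NW had 192 UMIs (50.2 CPM), NK 5 (1.22 CPM), HSW 67 (52.3 CPM) and HSK 0 of 2719506. NK stood at 0.0243 [0.00781, 0.0577] of NW, and with a floor of 3 UMIs the HSK level was at least 47.4-fold lower than that of HSW. The targeted gene thus followed the knockout labels, and it did so in macrophages although the series title names endothelium.

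The share of alveolar macrophages that were cycling was lowest in HSW. NW had 16.4% [14.4, 18.6], NK 14.6% [13.1, 16.2], HSW 7.29% [5.75, 9.09] and HSK 12.1% [10.4, 14.0]. The HSW interval overlaps no other, and the NW and NK intervals overlap each other. As ratios, HSW stood at 0.444 [0.344, 0.573] of NW, HSK at 1.66 [1.27, 2.16] times HSW, HSK at 0.827 [0.692, 0.989] of NK and NK at 0.890 [0.756, 1.05] of NW. The knockout to wild-type ratio was 1.86 times as large [1.37, 2.54] under HySu as in normoxia. Thinning each cell to 5000 UMIs, with at least 5 UMIs of the 8 genes, gave 13.9%, 15.3%, 5.72% and 11.9%, with 98, 290, 27 and 35 shallower cells left out; the NK to NW ratio then moved to the other side of 1, at 1.10 [0.919, 1.32]. In cells that were not alveolar macrophages, 3.51%, 5.03%, 3.80% and 3.95% had at least 10 UMIs of the 8 genes. How much of these differences comes from capture, digestion or the mice of a pool cannot be told apart from genotype and treatment.

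**Figure D2:**
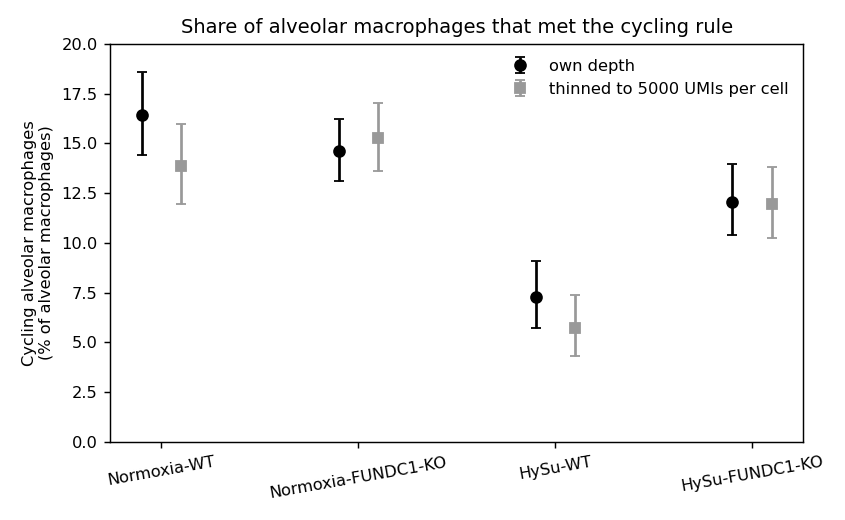
Percent of alveolar macrophages that were cycling (y axis) in each library (x axis), at each cell's own depth (black circles) and thinned to 5000 UMIs (grey squares); bars are Clopper-Pearson 95% intervals. HSW is the lowest library in both, at 7.29% and 5.72%.

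Cycling cells ranged from few to many mitotic transcripts, and a few of the cells held most of these. The G2 and mitosis list (32 genes such as the cyclins Ccna2 and Ccnb1, Cdk1, Plk1 and Cdc20) summed to 1985, 2954, 2959 and 2954 CPM in NW, NK, HSW and HSK, so NW was the low library. The licensing and DNA synthesis lists together summed to 3164, 3532, 2985 and 3559 CPM. The 21, 30, 8 and 17 cells with the most mitotic UMIs held 62.2%, 58.0%, 57.8% and 52.6% of them in NW, NK, HSW and HSK, and 1 HSW cell alone held 13.7%. Assigned to the side on which a cell stood higher, NW cells fell on the G2 and mitosis side in 16.75% [11.95, 22.5], NK cells in 21.3% [16.8, 26.4], HSW cells in 22.2% [13.3, 33.6] and HSK cells in 22.8% [16.6, 30.1]. These 4 intervals overlap. After thinning to 5000 UMIs per cell, with 1, 6, 0 and 1 shallower cells left out, the shares were 18.75%, 22.76%, 25% and 22.98%. The UMIs of 1 cell are not independent, so the intervals on mitotic genes below, which count UMIs, are narrower than those on cells.

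**Figure D3:**
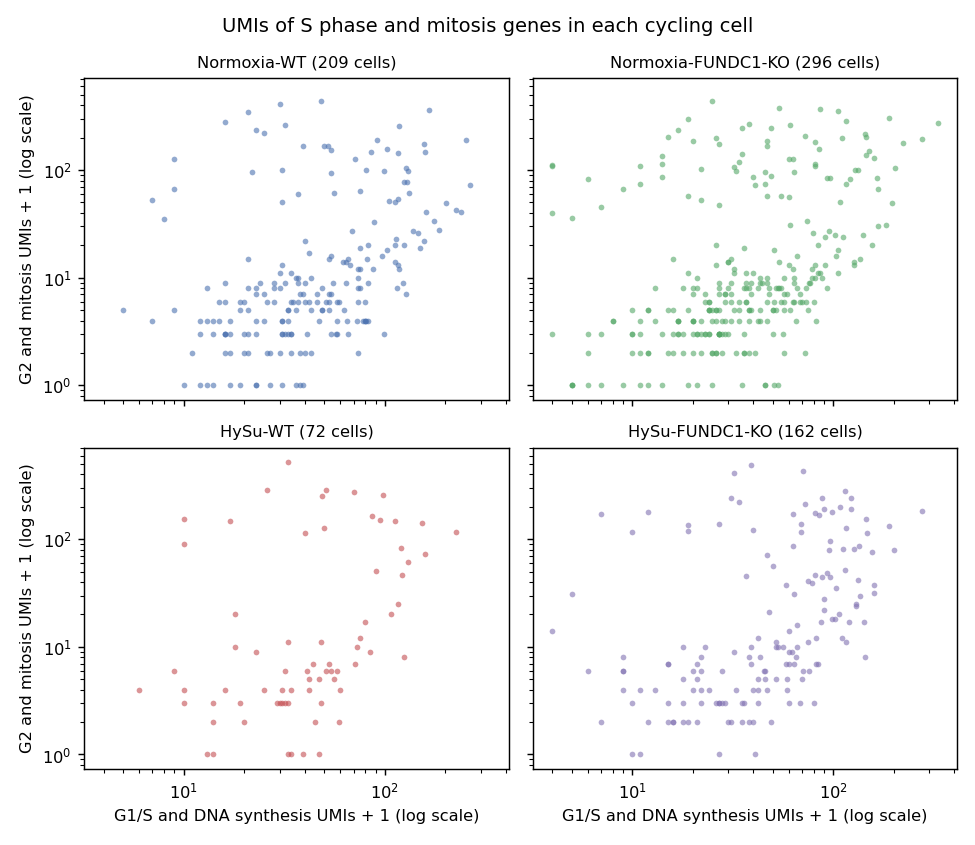
Each point is a cycling cell, with UMIs of the licensing and DNA synthesis lists plus 1 (x axis, log scale) and of the G2 and mitosis list plus 1 (y axis, log scale), by library. In each library a lower band of cells with few mitotic UMIs lies under a smaller group with many. At least 20 mitotic UMIs were in 26.8%, 28.4%, 30.6% and 37.7% of cells of NW, NK, HSW and HSK.

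Against other alveolar macrophages, the cycling cells were higher in licensing, DNA synthesis and mitosis genes, while few G1 regulators and no measured identity gene were called in all 4 libraries. Since cell cycle UMIs chose the cells, this contrast is a description. A gene counts as called when the ratio of its levels is at least 1.5, or at most the inverse, with an interval that excludes 1 and at least 30 UMIs in the pair; 462 of 10510 genes (4.4%) were called higher in all 4 libraries and 8 (0.0761%) lower. Of measured members, 17 of 17 licensing genes, 19 of 19 DNA synthesis genes and 31 of 31 mitotic genes were called higher in all 4. Pcna, the sliding clamp of DNA polymerase, was 3.28, 3.46, 3.80 and 4.49 times as high in cycling cells of NW, NK, HSW and HSK. Rrm2, which makes deoxynucleotides, was 65.5, 54.7, 109 and 192 times as high, and Ccna2, the S and G2 cyclin, 95.9, 83.5, 159 and 170 times. Pcna is thus common in other alveolar macrophages too, where it stood between 104 and 146 CPM, while Rrm2 and Ccna2 stood under 2 CPM there. Outside the lists, the largest ratios belonged to Esco2, a cohesin acetyltransferase, at 209, 177, 180 and 159, and to Pclaf, a PCNA-binding factor, at 144, 91.3, 117 and 355. Kinetochore genes Spc24, Spc25, Knl1 and Ndc80 and the mitotic entry gene Cdca3 followed.

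Among 18 measured G1 cyclins, kinases and CDK inhibitors, 4 were called higher in all 4 libraries. Cdkn2c, the inhibitor p18, was 6.45, 10.0, 9.38 and 15.6 times as high in cycling cells, and Cdkn2d, the inhibitor p19, 2.76, 2.93, 4.32 and 5.76 times. Cdk4, the G1 kinase, was 1.76 to 2.19 times as high and Rbl1, a retinoblastoma relative, 2.53 to 3.21 times. Cdkn1a, the inhibitor p21, reached 1.11 to 1.42 times and was not called. In the integrated stress response list, 2 of 14 were called higher in all 4, the serine and folate enzymes Psat1 (2.27 to 3.66 times) and Mthfd2 (1.79 to 4.01 times).

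None of 25 measured identity genes outside the rule was called in all 4 libraries in either direction. The same held for 17 growth factor receptor and self-renewal genes. Over all genes only 0.0761% were called lower in all 4, so a count of 0 lower is close to that share. Most identity genes lay a little below 1: 20, 22, 21 and 21 of 25 in NW, NK, HSW and HSK. The identity list's median log2 ratio over the 4 libraries was -0.12, against 0.02 for all genes. Pparg stood at 0.912, 0.981, 1.09 and 0.995 of its level in other alveolar macrophages, Car4, a carbonic anhydrase, at 1.12, 1.14, 1.08 and 1.18, and Chil3, a chitinase-like protein, at 0.881, 0.905, 0.841 and 0.989. Ear2, a ribonuclease, was the lower one of these at 0.774, 0.796, 0.684 and 0.655. The receptors of macrophage growth factors were close to 1: Csf1r at 0.852, 0.997, 0.732 and 0.842, and Csf2rb at 0.926, 0.884, 0.968 and 0.949. Myc, a transcription factor that drives growth, stood at 1.01, 0.970, 1.09 and 0.787. Hist1h2bc, a histone gene, was among the 8 called lower in all 4, at 0.573, 0.593, 0.490 and 0.419.

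**Figure D4:**
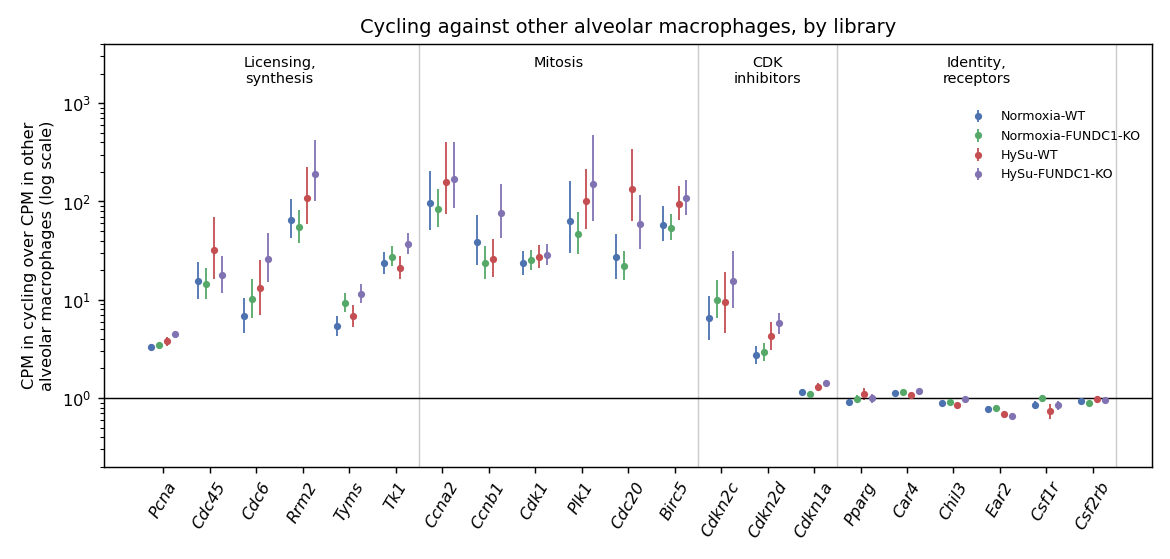
Ratio of the level in cycling to that in other alveolar macrophages (y axis, log scale) for chosen genes (x axis) in each library (colours); bars are 95% counting intervals and the line marks 1. Licensing, synthesis and mitosis genes stand above 3 in all 4 libraries, while Pparg, Car4, Chil3, Ear2, Csf1r and Csf2rb stand between 0.655 and 1.18.

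The knockout in normoxia, NK against NW, showed more mitotic and fewer mitochondrially encoded transcripts. Over all 10320 genes measured, 7.12% were called higher and 3.64% lower. In the G2 and mitosis list 18 of 32 were called higher and none lower, with a median log2 ratio of 0.66 against 0.07 for all genes. Without the top mitotic cell of each library the count was again 18. Counted by cells the libraries were closer, with at least 20 mitotic UMIs in 26.8% of NW and 28.4% of NK cells. Median mitotic UMIs per cell were 6 and 7. These per-cell counts are not scaled for depth, which was lower in NK, at a median of 12929 UMIs per cycling cell against 16731 in NW. The rule's fixed count of 10 UMIs, which includes Mki67 and Top2a, was thus a larger fraction of a shallower NK cell. The part of this choice of cells in the mitotic levels was not tested. Cenpe, a kinetochore motor, was at 69.6, 132, 78.8 and 66.9 CPM in NW, NK, HSW and HSK, and its NK to NW ratio was 1.90 [1.63, 2.20]. NK was the high library and the other 3 lay close together. Kif11, the motor that separates spindle poles, was at 46.6, 82.8, 59.3 and 55.5 CPM (ratio 1.78 [1.48, 2.14]), and Ube2c, a ubiquitin enzyme of anaphase, at 150, 263, 250 and 242 CPM (1.75 [1.58, 1.94]). For Ube2c it was NW that stood apart. The licensing list had 1 of 19 called higher, and DNA synthesis 1 of 20 called lower. Of 18 mitophagy genes, the pathway in which FUNDC1 acts, 1 was called higher and 1 lower, and the lower 1 was Fundc1 itself.

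Of 7 measured mitochondrially encoded genes, 5 were called lower in NK than in NW (median log2 ratio -0.67). mt-Cytb, a subunit of respiratory complex III, was at 1884, 1110, 3247 and 2596 CPM in NW, NK, HSW and HSK, a ratio of 0.589 [0.568, 0.612]. Other alveolar macrophages gave 0.530 for mt-Cytb, and cells outside the class stood at 2308 CPM in NW and 1670 in NK, so the order of the libraries was shared. Spp1, osteopontin, was at 1635, 749, 1131 and 1231 CPM, a ratio of 0.458 [0.439, 0.478] that other alveolar macrophages matched at 0.457. Of 17 chemokine and interleukin genes 5 were called lower and none higher; the list's median log2 ratio was -0.41, and -0.24 without the cells that carried at least 10 UMIs of another lineage. Markers of other cells differed between these libraries too: 4 of 6 B cell genes, 3 of 6 fibroblast genes, 3 of 7 T and NK cell genes and 3 of 5 interstitial macrophage genes were called higher in NK, and their part was not tested. Cxcl1, a neutrophil attractant, was at 98.9, 46.2, 120 and 91.6 CPM, with a ratio of 0.467 [0.390, 0.557], and Il1a at 36.1, 13.7, 27.3 and 27.6 CPM, with 0.379 [0.273, 0.520]. NK was the lowest library for both. Of 8 glucocorticoid-induced genes 3 were called higher, among them Fkbp5, a chaperone of the glucocorticoid receptor, at 65.7, 119, 45.3 and 63.3 CPM (1.82 [1.56, 2.13]). Outside the lists, Coq2, an enzyme of coenzyme Q synthesis, was at 27.0 CPM in NW and 56.7 in NK, a ratio of 2.10 [1.66, 2.68] against 1.13 in other alveolar macrophages. Xlr, an X-linked lymphocyte-regulated gene, was at 64.6, 23.2, 72.6 and 43.4 CPM, with a ratio of 0.359 [0.280, 0.457].

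HySu in wild type, HSW against NW, set 72 cells against 209. Over all 9479 genes 5.32% were called higher and 13.7% lower. Mitotic genes were higher, with 14 of 32 called and none lower (median log2 ratio 0.49 against -0.15 for all genes), but the count fell to 9 without the top mitotic cell of each library. Birc5, survivin of the chromosomal passenger complex, was at 118, 160, 242 and 214 CPM in NW, NK, HSW and HSK, a ratio of 2.05 [1.77, 2.38]. Plk1, a mitotic kinase, was at 34.8, 57.4, 88.2 and 57.4 CPM, a ratio of 2.53 [1.95, 3.28], with 24.8% of the HSW UMIs in 1 cell. Cdc20 was at 37.7, 59.6, 82.7 and 53.7 CPM (2.19 [1.69, 2.84]). HSW was the high library for these 3 genes, although its share of cycling cells was the lowest.

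Cyp1a1 and Cyp1b1, targets of the aryl hydrocarbon receptor, a sensor of planar aromatic ligands, were higher under HySu in both genotypes. Cyp1a1, a cytochrome P450, was at 5.23, 10.3, 182 and 99.3 CPM in NW, NK, HSW and HSK. Both HySu libraries stood above both normoxia libraries, and the ratios were 34.7 [22.0, 57.9] for HSW to NW and 9.68 [6.97, 13.7] for HSK to NK. Single cells held 39.1% of the Cyp1a1 UMIs in HSW and 41.5% in HSK; without the top cell of each library, the levels of Cyp1a1 were 3.67, 7.13, 113 and 58.6 CPM. Cells outside the class had more, at 735 CPM in HSW and 465 in HSK. Summed endothelial markers were also highest in HSW, at 313 CPM; their part in the Cyp1a1 level was not tested. Cyp1b1 had 0 UMIs in NW and 77 in HSW, at least 76.5-fold higher against a floor of 3 UMIs, and 1 UMI in NK and 62 in HSK. Spag11b, a defensin-like peptide, was at 7.85, 9.28, 96.8 and 61.0 CPM, with ratios of 12.3 [8.22, 19.03] in wild type and 6.58 [4.60, 9.62] in the knockout; cells outside the class held at most 2.06 CPM.

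Cholesterol and glucocorticoid-induced genes were often called lower in HSW than in NW. Of 14 measured genes of the cholesterol list 7 were called lower and none higher (median log2 ratio -0.71). Sqle, squalene epoxidase, was at 29.8, 19.8, 13.3 and 32.0 CPM in NW, NK, HSW and HSK, a ratio of 0.445 [0.2503, 0.744]. HSW was the lowest library for this gene. Of 7 glucocorticoid-induced genes 5 were called lower. Per1, a clock repressor that glucocorticoids also induce, was at 76.7, 88.7, 23.4 and 46.3 CPM (0.305 [0.202, 0.445]), and Tsc22d3, the leucine zipper GILZ, at 204, 251, 115 and 122 CPM (0.562 [0.468, 0.671]). Both HySu libraries lay under both normoxia libraries for these genes. In the chemokine and interleukin list 6 of 17 were called lower and 1 higher; its median log2 ratio was -0.53, and -0.37 without the cells that carried at least 10 UMIs of another lineage. Il1b was at 248, 179, 50.7 and 154 CPM, a ratio of 0.204 [0.156, 0.263]; summed neutrophil markers were lowest in the same library, at 516 CPM against 1388 in NW, and their part was not tested. Of 14 integrated stress response genes 5 were called lower, such as the transcription factor Atf5 at 19.1, 19.3, 8.58 and 7.72 CPM (0.449 [0.215, 0.852]). Of 16 targets of the hypoxia factor HIF and glycolysis genes 1 was called higher and 3 lower.

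The knockout under HySu, HSK against HSW, had 4.54% of 8720 genes called higher and 7.05% lower. Of 14 measured cholesterol genes 3 were called higher in HSK and none lower. The list's median log2 ratio was 0.21, with 4 genes below a ratio of 1, and it was 0.01 without the cells that carried at least 10 UMIs of another lineage. Sqle had a ratio of 2.41 [1.42, 4.33], Dhcr7, the last enzyme of cholesterol synthesis, 1.75 [1.10, 2.87] and Hmgcs1, which makes HMG-CoA, 1.59 [1.05, 2.47]. These genes share the HSW library with the comparison above, so low HSW levels enter both. Il1b stood 3.05 times as high [2.34, 4.02], with 32.6% of the HSK UMIs in 1 cell. In other alveolar macrophages its HSK to HSW ratio lay on the other side of 1, at 0.708 [0.663, 0.756]. Neutrophil markers in cycling cells stood at 1054 CPM against 516, and their part was not tested. The G2 and mitosis list had 1 of 32 called higher and 3 lower. Without the top mitotic cell of each library, 1 was called higher and 0 lower. Mitochondrially encoded genes had none of 7 called. Mmp12, the macrophage elastase, was at 3.12 CPM in HSW and 337 in HSK, but 1 HSK cell held 96.8% of these UMIs, and 1 cell likewise held 93.2% of those of the chemokine gene Ccl17.

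HySu in the knockout, HSK against NK, had 5.94% of 9996 genes called higher and 25% lower, and the median log2 ratio of all genes was -0.30. Against this shift, 6 of 7 mitochondrially encoded genes were called higher, with a median of 1.06; mt-Cytb stood at 2.34 [2.25, 2.43] times NK and 2.33 in other alveolar macrophages. Of 25 identity genes 3 were called higher and 7 lower. Fabp5, a fatty acid carrier, was at 311, 210, 514 and 690 CPM in NW, NK, HSW and HSK, a ratio of 3.28 [3.03, 3.56], and Car4 at 795, 871, 895 and 1408 CPM (1.62 [1.54, 1.69]). Lpl, lipoprotein lipase, was at 3097, 3335, 2224 and 1778 CPM (0.533 [0.516, 0.551]). Gapdh, a glycolytic enzyme, was at 1072, 778, 1774 and 2041 CPM (2.62 [2.51, 2.74]). It was the only 1 of 16 HIF target and glycolysis genes called higher, while 5 were called lower and 12 lay below a ratio of 1. That list's median log2 ratio was -0.47. HySu libraries were high for Fabp5 and Gapdh and low for Lpl. Of 17 growth factor receptor and self-renewal genes 8 were called lower and none higher; Myc was at 56.3, 79.9, 45.3 and 35.7 CPM (0.447 [0.352, 0.562]). The list's median log2 ratio was -0.48, and -0.22 by TMM scaling. Markers of other cells were lower in HSK as well, in 6 of 6 T and NK cell genes, 4 of 5 B cell genes and 5 of 7 monocyte genes, and their part was not tested. Of 8 glucocorticoid-induced genes 6 were called lower, Fkbp5 at 0.529 [0.442, 0.631]. Retnlg, a neutrophil gene, had a ratio of 0.218 [0.173, 0.271], or 0.436 without the top cell of each library, and the largest sum of neutrophil markers in a cycling cell was 2045 UMIs in NK and 255 in HSK. Scaling by TMM, which assumes that most genes do not differ, changed the balance of calls: the share of called genes that were higher was 66.2% by total UMIs and 51.3% by TMM for NK to NW, 27.9% and 44.7% for HSW to NW, 39.2% and 52.0% for HSK to HSW, and 19.2% and 50.5% for HSK to NK.

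Some library differences were of another size in cycling than in other alveolar macrophages. The quantity given here is the ratio in cycling cells divided by that in other alveolar macrophages. For HSW to NW it was 0.593 [0.401, 0.877] for Per1 and 0.323 [0.2496, 0.417] for Il1b. For NK to NW it was 1.00 [0.953, 1.05] for Spp1, 1.70 [1.21, 2.39] for Cenpe and 0.516 [0.398, 0.670] for Xlr. The Cenpe value is a description only, since the rule left few cell cycle transcripts in other alveolar macrophages. Apoe, the lipoprotein, was at 141, 140, 27.3 and 59.9 CPM in cycling cells of NW, NK, HSW and HSK and at 101, 169, 140 and 146 CPM in other alveolar macrophages, so its HSW to NW ratio was 0.193 [0.133, 0.272] in the former and 1.39 in the latter. Summed interstitial macrophage markers in cycling cells were 84.5, 75.7, 29.7 and 45.2 CPM, and their part was not tested.

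**Figure D5:**
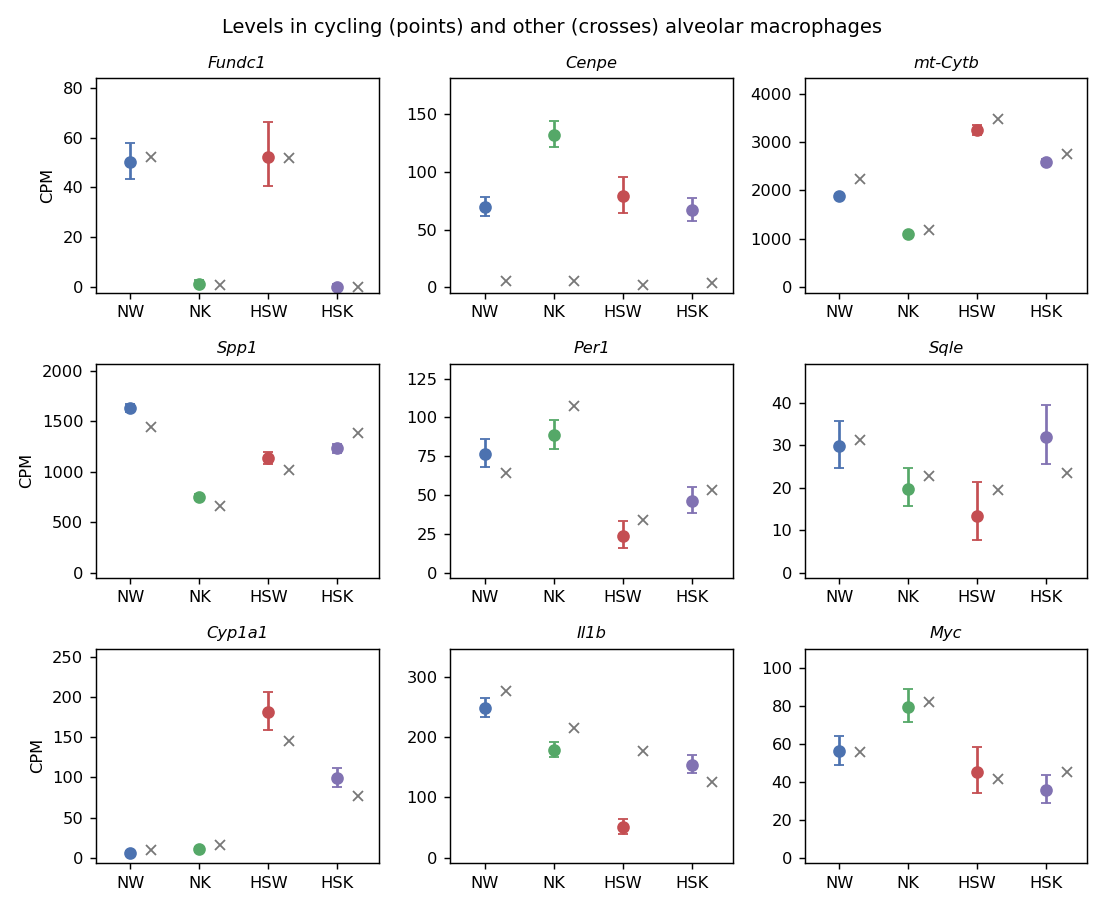
Levels of 9 chosen genes in CPM (y axes, each from about 0) in cycling alveolar macrophages (points, 95% counting intervals) and other alveolar macrophages (grey crosses) of the 4 libraries (x axis). Fundc1 is near 0 in NK and HSK, Cenpe in other alveolar macrophages is under 6 CPM, and Il1b in HSW lies under its cross.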

How the data were processed

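Lung cells of 4 groups were captured in microwells (GEXSCOPE) as polyA RNA, 1 library per group. The authors deposited raw UMI counts (not normalized); the submitters' processing notes name cutadapt 1.17, STAR 2.6.1a, featureCounts 2.0.1, Scanpy and the builds GRCm38 and mm10, with no order. The members and gene lists were chosen with earlier results of these data known. The counts for the cholesterol list leave out 1 gene, which is not reported here. Here, members were found per cell by the rule given in the report, and counts were summed over the cells of a library and scaled to CPM. A gene missing from a library's gene file counts as 0 UMIs. Ratios carry exact conditional binomial 95% intervals, shares Clopper-Pearson intervals, ratios of shares log-normal (Katz) ones and levels Poisson ones; PCR and the pooling of mice are not covered. List medians add 0.5 UMI. Named genes were drawn from the rule's genes, Fundc1, and per pair the 8 largest and 8 smallest called ratios. These ratios needed at least 50 CPM in 1 library and at least 0.5 of the level in cells outside the class. For cycling against other cells the 10 largest and smallest were used. Only part of these ranked genes is given in the text. List members and other genes named as examples were chosen after their values were seen. The size rule left out predicted genes and those of mitochondria, ribosomes, haemoglobin and antigen receptors. Each cell took the G2 and mitosis side when that list's fraction, divided by its mean over libraries, exceeded that of the licensing and synthesis lists. The gene scripts were tested on simulated counts. These were drawn independently for each gene, so they do not cover UMIs that gather in single cells. Tools were Python 3.11.15, numpy 2.4.6, scipy 1.17.1, pandas 2.3.3, scanpy 1.11.5 (Scrublet) and, for TMM factors only, edgeR 4.0.16 in R 4.3.3. Promoters came from RefSeq, GRCm38.p6.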

Additional observations from a re-analysis of the deposited data

Results flagged for a closer look

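The genes here moved in opposite directions under the same contrast in 2 settings, each past 1.5-fold with an interval that excludes 1; for them the difference itself was not tested. The share of cycling cells is given because its knockout to wild-type ratio was 1.863 times as large under HySu as in normoxia, with an interval of counting error that excludes 1; the NK to NW ratio of shares alone was 0.8899, with an interval that includes 1. Each pair of contrasts draws on the same 4 libraries.

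For the knockout, the NK to NW ratio and the HSK to HSW ratio were 1.582 and 0.6492 for Cdc20, 1.65 and 0.6506 for Plk1, 1.961 and 0.5461 for Cyp1a1, and 1.799 and 0.1015 for Gzma, a cytotoxic granule protease. They were 0.4847 and 7.81 for Cxcl3, a neutrophil attractant, 0.5215 and 3.905 for Pf4, a platelet chemokine, 0.5126 and 107.9 for Mmp12, 0.6634 and 2.412 for Sqle, and 0.5167 and 1.841 for Wfdc17, a secreted antiprotease. For HySu, the HSW to NW ratio and the HSK to NK ratio were 1.589 and 0.6412 for Brap, 2.364 and 0.1334 for Gzma, 1.524 and 0.5553 for Klhl24, 0.2339 and 49.24 for Mmp12, 0.4232 and 2.094 for Mmp8, a neutrophil collagenase, 0.5422 and 1.505 for Pole, a DNA polymerase subunit, and 0.4447 and 1.617 for Sqle.

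Several rest on 1 cell. That cell held 96.8% of Mmp12 UMIs in HSK, 96.2% of Gzma UMIs in HSW and 70.8% of Cxcl3 UMIs in NW. The HSK to HSW calls of Cdc20 and Plk1 were also lost without the top mitotic cell of each library. In that setting 0 of 32 mitotic genes were called lower in HSK.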

How the results depend on the processing

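No paired analysis was possible because each group had 1 library of pooled mice, so nothing could be left out or blocked either. Of 88 comparisons of a share, count or phase value with an alternative, 71 stayed within the limits set for a match and 17 moved. Only ratios of shares with an interval that excluded 1 could be marked as reversed, and none of these was. Counts and phase values had no such mark. Thinned to 5000 UMIs, the NK to NW ratio of shares was 1.10. At a fold of 2, added after seeing the data, genes called higher and lower were 241 and 145 for NK to NW (735 and 376 at 1.5-fold), 202 and 559 for HSW to NW (504 and 1302), 193 and 250 for HSK to HSW (396 and 615), and 219 and 858 for HSK to NK (594 and 2499). TMM gave 1155 and 1130 for HSK to NK and 19 genes lower in cycling than in other cells in all 4 libraries, against 8; it shifted the median log2 ratio of all genes by 0.12 for HSW to NW and 0.26 for HSK to NK. Without a filter on low counts, 788 genes were higher for HSW to NW and 928 lower for HSK to HSW. The mean of each cell's share, which has no interval, gave 623 lower for NK to NW, and 770 higher and 966 lower for HSK to HSW. Without the top cell of each library, added after seeing the data, the ratio turned for Cxcl3 (NK to NW, 1.217) and Gzma (HSW to NW, 0.1375; HSK to HSW, 1.217), and Pf4 lost its call for NK to NW (0.7915). Among medians of gene lists, TMM moved HSK to NK from -0.01 to 0.25 for licensing, and to 0.31 for DNA synthesis, -0.13 for cholesterol and 1.31 for mitochondrially encoded genes, and HSW to NW to -0.29 for ribosome biogenesis; leaving out cells with UMIs of another lineage moved the chemokine list of HSW to NW to -0.37. The planned limit of 5 UMIs of another lineage marked 99.05% of cycling cells and was not run; a limit of 10 UMIs, with S100a8, S100a9, Scgb1a1 and Mgp not counted, took its place. The cause of these changes was not tested. The 72 cells of HSW limit every ratio that uses that library.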
